A study of Arabidopsis thaliana with 12 samples.

Results

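Cultured Arabidopsis cells that had grown on Xyl were given 1 mM Fru for 1 h, and their transcripts were compared with those of cells given 1 mM Xyl. The comparison was defined by the sample labels as the 3 Fru arrays against the 3 Xyl arrays, paired by the replicate number, and it took 6 of the 12 arrays of the series. The other 6 arrays, 3 with 1 mM Glc and 3 with 1 mM Suc, entered the same fit and served to show where Fru stood apart. All 12 samples came from a habituated suspension culture of A. thaliana, a line first raised from roots that divides without added hormones. The cells were kept in the dark in full-strength MS medium with 87 mM Xyl as the carbon source, and they were 7 d old and not moved to fresh medium before treatment. The Xyl arrays are therefore the control for handling and for added sugar, in cells already fed on that sugar. Flasks for the treatments were filled from a shared cell suspension, per the study's methods. The study calls its 3 replicates of each treatment biological and independent, but nothing in the labels says that the 3 replicate numbers are separate lines. So p-values measure the spread between these flasks or cultures.

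Fru is a hexose that plant cells import through proton-coupled carriers and phosphorylate with fructokinases, whereas Xyl, a pentose, enters metabolism by isomerisation and phosphorylation. Sugars act as signals as well as fuel: carbon-poor plant cells express a set of genes under the SnRK1 kinase and its bZIP transcription factors, and added sugar represses that set. Hexose phosphorylation also draws on cellular phosphate, and plant cells short of phosphate express a second set of genes, which replace membrane phospholipids with galactolipids and sulfolipids, release phosphate from organic compounds and import it. These statements are background and were not measured here.

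Few probe sets passed the threshold used here, and the largest changes among named genes that passed were rises of genes of lipid remodelling and phosphate supply. The type-B monogalactosyldiacylglycerol synthase MGD3 rose 5.18-fold, and the falls past the threshold were smaller. The deepest among named genes was a 2.01-fold fall of the plastid gene petA, a call that several alternative fits did not keep. Among the 22746 probe sets tested, 249 passed the threshold of p under 0.002 in limma, which is 1.09% of them, where 45.5 would be expected to pass with no differences. Of these, 98 were higher with Fru (0.431%) and 151 lower (0.664%). Each of the 249 had the same direction in all 3 replicates, which a fit by replicate favours in its calls. Over all 22746 probe sets, 7377 had 1 direction in all 3. No probe set had a Benjamini-Hochberg adjusted p under 0.05 (limma), the lowest being 0.0785 for 17 probe sets, and 2689 had an unadjusted p under 0.05. So single genes are reported at an unadjusted threshold throughout. The median log2 change over all probe sets was 0.0021.

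The number of calls rested on the pairing of the arrays. Without the replicate number as a block the same fit called 19 probe sets, of which 19 were also among the 249. A Student's t-test, the test the methods name, called 26 when run here as unpaired on the log2 values, and 5 of them were among the 249. Both counts, 19 and 26, lie below the 45.5 expected with no differences. The methods do not state whether the arrays were paired, so this need not be the study's own test. Centring each array on its median gave 256 calls, but their split moved from 39.4% higher to 66.8% higher (171 higher and 85 lower), with 183 probe sets shared with the 249. The median of the Fru array minus that of the Xyl array was -0.036, -0.058 and -0.063 on the log2 scale in replicates 1, 2 and 3. The balance of rises against falls thus moved with the scaling, whereas the 20 largest changes of named genes, 10 rises and 10 falls described next, passed under both.

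The rises were larger and the falls more numerous. The median change of the called probe sets was 0.53 for the 98 higher and -0.50 for the 151 lower, and 14 of the first and 2 of the second changed by 1 log2 unit or more. Of the higher probe sets 22, or 22.4%, had a mean level under 4 on the log2 scale, against 9, or 5.96%, of the lower ones and 41.1% of all probe sets. The Fru arrays lay apart from the Xyl arrays, without overlap, for 43 of the 98 higher and 57 of the 151 lower probe sets. Among all 22746 probe sets 1540 did so. A single gene could be named for 75 of the higher and 91 of the lower probe sets. Of these, 51 and 60 belong to the study's own list of sugar-responsive genes, which was chosen on these same arrays and supplied some of the names used here. Counts over named genes are for that reason not independent evidence of a direction.

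**Figure D1:**
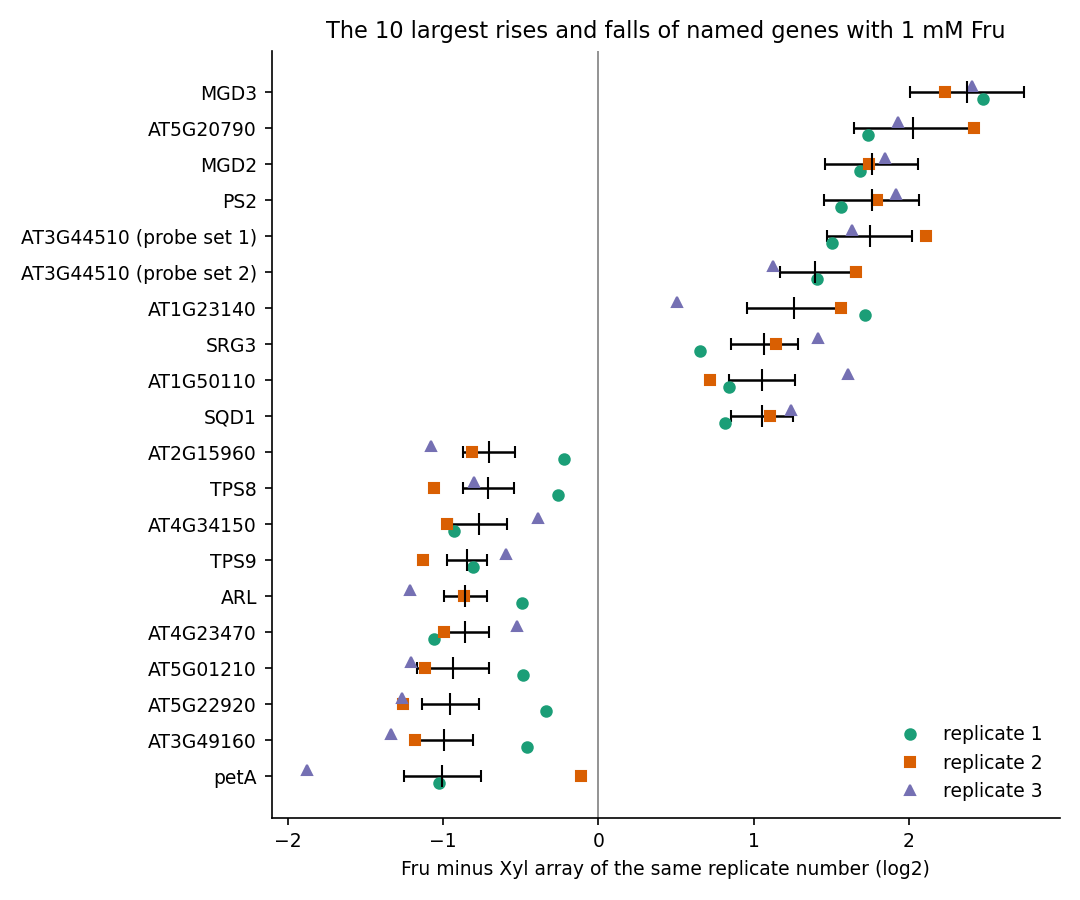
Difference between the Fru and the Xyl array of each replicate number (log2, x axis) for the 10 largest rises and the 10 largest falls among called probe sets with a single gene name. Coloured symbols are the 3 replicates, black ticks the fitted change and bars its SE; every symbol of the rises lies above 0 and every symbol of the falls below it, with petA of replicate 2 closest to 0 at -0.11.

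MGD3 (AT2G11810) makes the galactolipid monogalactosyldiacylglycerol and is known as a phosphate-starvation gene. Its log2 levels were 7.67, 7.07 and 6.29 in the Fru arrays of replicates 1, 2 and 3, and 5.19, 4.84 and 3.88 in the Xyl arrays. Replicate 3 was the lowest in both groups, yet the lowest Fru array lay above the highest Xyl array, and the differences of 2.48, 2.23 and 2.41 were close to one another. The change was 2.37 ± 0.37 (SE; adjusted p = 0.0785 in limma). MGD2 (AT5G20410), the second type-B synthase, rose by 1.76 ± 0.30 (SE), with levels of 7.50, 6.93 and 6.48 with Fru and 5.81, 5.18 and 4.63 with Xyl. Its groups did not overlap either, and the replicates stood in the same order as for MGD3. SQD1 (AT4G33030), which makes the UDP-sulfoquinovose used for sulfolipids, was among the abundant transcripts, at 10.35, 10.41 and 10.03 with Fru against 9.53, 9.30 and 8.79 with Xyl. It rose by 1.05 ± 0.20 (SE), a 2.08-fold change, and the 2 groups were again apart.

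Genes that release phosphate from lipid head groups and other organic compounds rose with them. PS2 (AT1G73010), a phosphatase known as a marker of phosphate starvation, had levels of 11.49, 10.70 and 10.75 with Fru and 9.93, 8.90 and 8.84 with Xyl, and rose by 1.76 ± 0.31 (SE). SRG3 (AT3G02040), a glycerophosphodiester phosphodiesterase that works on the head groups of degraded phospholipids, rose by 1.07 ± 0.21 (SE). Its 3 Fru arrays were nearly equal, at 10.50, 10.35 and 10.38, and the spread lay in the Xyl arrays, at 9.85, 9.21 and 8.96. PAP17 (AT3G17790), a purple acid phosphatase, was at 10.62, 10.45 and 10.75 with Fru and 10.13, 9.51 and 10.11 with Xyl. That change of 0.69 ± 0.12 (SE) was small in size but clear of the Xyl arrays.

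Transporters of phosphate and phosphate esters made up the third group. PHT1;4 (AT2G38940), a phosphate importer of the plasma membrane, rose by 1.03 ± 0.17 (SE). Its levels were 5.50, 5.10 and 6.54 with Fru against 5.04, 3.85 and 5.16 with Xyl, so that the groups overlapped and the rise shows within replicates, at 0.46, 1.25 and 1.38. G3Pp1 (AT3G47420), a member of the glycerol-3-phosphate permease family, rose by 0.72 ± 0.13 (SE), from 8.50, 7.94 and 9.08 with Xyl to 9.17, 9.03 and 9.49 with Fru, also with overlap. The remaining members of the list were AT5G20790, a gene known from phosphate-starved plants but of unknown function, the transcription factor CRF8 (AT1G71130) and the phosphatase PFA-DSP1 (AT1G05000). AT5G20790 had the second-largest rise of all, 2.03 ± 0.39 (SE), with 8.80, 8.65 and 7.92 against 7.06, 6.23 and 5.99. CRF8 and PFA-DSP1 rose by 0.63 ± 0.13 and 0.60 ± 0.14 (SE), both without overlap between the groups, and they passed in 3 and 2 of the 9 fits with arrays left out.

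Of the 37 genes in the list of phosphate starvation and lipid remodelling, 11 could be named on the array. Their median change was 1.05, beside 0.0021 for all probe sets. All 11 passed the threshold upwards and none downwards, where 0.431% of all probe sets were higher. This count cannot be read as a share of the pathway: the 11 are all in the study's sugar-responsive list and 10 have a name here only through it, and the other 26 genes were not analysed here. Leaving out single arrays kept 8 (without Fru replicate 2) to 11 (without Fru replicate 3) of the 11. Leaving out the 4 arrays of replicate 2 kept 5, and without the block 3 passed (MGD3, AT5G20790 and SQD1). The fitted medians ranged from 0.83 without Xyl replicate 3 to 1.28 without replicate 1.

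The remaining large rises lay outside that list. AT3G44510 was measured by 2 probe sets, which rose by 1.75 ± 0.27 and 1.40 ± 0.23 (SE). For the first, the levels were 7.35, 7.06 and 5.41 with Fru and 5.85, 4.95 and 3.78 with Xyl. Replicate 3 was low in both groups and made them overlap, while the 3 differences were 1.51, 2.11 and 1.63. AT1G50110, known as BCAT6, a branched-chain amino acid aminotransferase, rose by 1.06 ± 0.21 (SE), most in replicate 3 (1.61) and less in replicates 1 and 2 (0.84 and 0.72). AT1G23140 rose by 1.26 ± 0.31 (SE), with differences of 1.72 and 1.56 in replicates 1 and 2 but 0.51 in replicate 3. It was the least steady of the 10 rises, since 2 of the 9 fits with arrays left out kept it past the threshold.

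**Figure D2:**
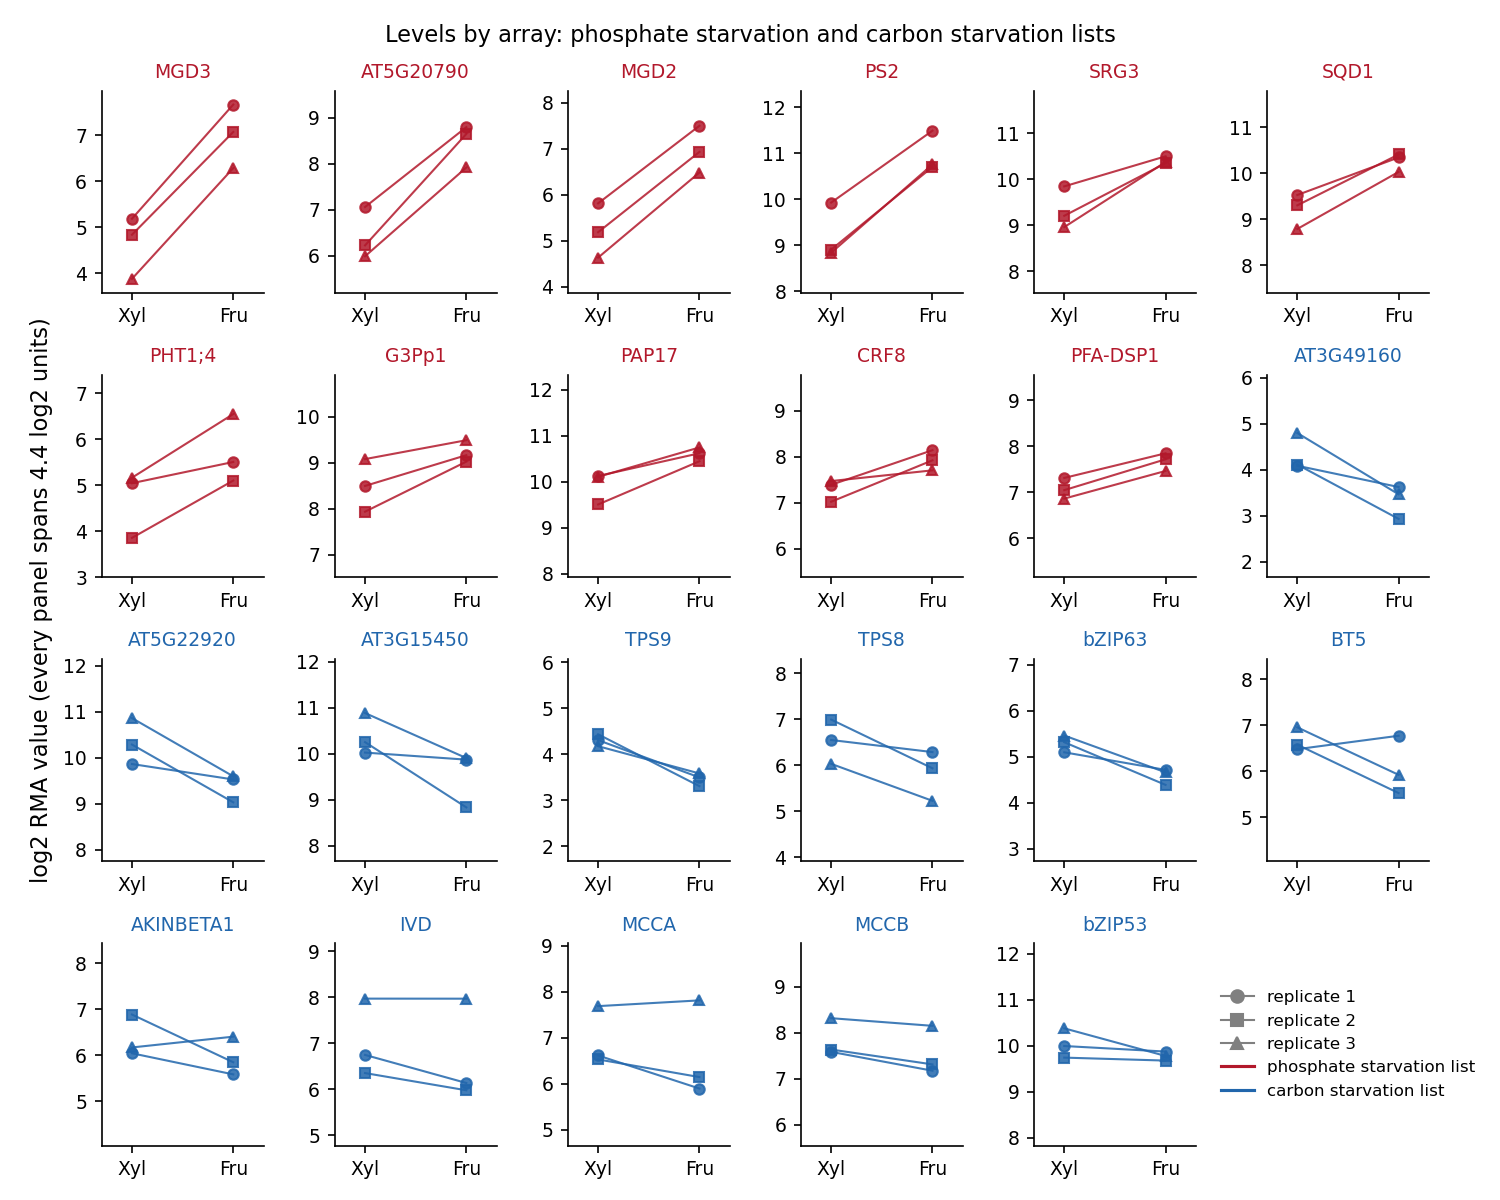
Log2 RMA value (y axis) in the Xyl and Fru arrays of each replicate, joined by a line, for the 11 named genes of the phosphate starvation list (red) and the 12 of the carbon starvation list (blue). Each panel spans the same height; the red lines all rise, and the blue lines fall except in replicate 1 of BT5, replicate 3 of AKINBETA1 and MCCA, and replicate 3 of IVD, which is flat.

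Of 12 named genes known from carbon starvation 5 fell with Fru, by smaller amounts, and 7 did not pass. TPS8 and TPS9 are class-II trehalose-phosphate synthase proteins, and bZIP63 is a transcription factor that SnRK1 phosphorylates. TPS9 (AT1G23870) fell in level from 4.30, 4.43 and 4.17 with Xyl to 3.49, 3.30 and 3.58 with Fru, a change of -0.84 ± 0.13 (SE; adjusted p = 0.0785 in limma). The groups were well apart, and TPS9 was the one gene of the 20 largest changes that the unpaired t-test also called. bZIP63 (AT5G28770) was at 5.10, 5.32 and 5.46 with Xyl and 4.72, 4.39 and 4.66 with Fru, a change of -0.70 ± 0.12 (SE). TPS8 (AT1G70290) changed by -0.71 ± 0.16 (SE), from 6.55, 7.00 and 6.04 to 6.29, 5.94 and 5.23, and its groups overlapped.

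The other 2 falls in that list were of AT5G22920, which encodes a RING-type zinc finger protein, and AT3G49160, which encodes a protein related to pyruvate kinase. AT5G22920 was abundant, at 9.86, 10.28 and 10.86 with Xyl and 9.52, 9.03 and 9.59 with Fru, and changed by -0.95 ± 0.18 (SE). AT3G49160 was rare, at 4.09, 4.12 and 4.80 with Xyl and 3.63, 2.94 and 3.47 with Fru, and changed by -0.99 ± 0.19 (SE). In both genes the groups did not overlap and replicate 1 changed least, at -0.34 and -0.46, against -1.26 and -1.18 in replicate 2 and -1.27 and -1.33 in replicate 3.

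The replicates differed over the list. Its median change was -0.40 in replicate 1, -1.04 in replicate 2 and -0.70 in replicate 3. For the phosphate list the medians were 0.75, 1.14 and 1.38. AT3G15450, an abundant transcript of this list, was at 10.03, 10.26 and 10.89 with Xyl and 9.87, 8.84 and 9.91 with Fru. Its change of -0.85 ± 0.28 (SE; adjusted p = 0.268 in limma) missed the threshold, with -0.15 in replicate 1. BT5 (AT4G37610), a BTB-domain protein, changed by 0.29 in replicate 1 and by -1.05 and -1.03 in the other two, and by -0.60 ± 0.30 (SE; adjusted p = 0.458 in limma) over all 3. Enzymes of leucine breakdown, IVD, MCCA and MCCB, which carbon-starved cells are known to express, had values of -0.33, -0.33 and -0.30, and none of them passed. These 3 had their most negative difference in replicate 1, at -0.61, -0.72 and -0.41, whereas AT3G15450 and BT5 had it in replicate 2. bZIP53 was at -0.26 and AKINBETA1, a subunit of SnRK1, at -0.42 with -0.46, -1.04 and 0.23 in the replicates, and neither passed.

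Of the 28 genes of the carbon starvation list 12 could be named. Of these, 5 fell, none rose and 7 did not pass, where 0.664% of all probe sets were lower. The median of the 12 was -0.65 beside 0.0021 for all probe sets, with a negative change in each of the 12. Of the 12, 7 are in the study's sugar-responsive list, among them the 5 that passed; of the 5 that are not, 0 passed. Without single arrays 4 to 6 of the 12 passed. Without the 4 arrays of replicate 2 the count was 1, and without the block it was 2 (TPS9 and bZIP63).

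The largest falls of named genes outside the list belonged to genes of varied roles. The chloroplast gene petA encodes cytochrome f. It was at 7.27, 6.95 and 7.35 with Xyl and 6.25, 6.84 and 5.48 with Fru, so that replicate 2 hardly moved (-0.11) while replicates 1 and 3 changed by -1.03 and -1.87. Plastid transcripts as a whole were uneven between replicates: the 69 probe sets named as plastid-encoded had a median change of -0.20, 0.16 and -0.74 in replicates 1, 2 and 3. Of the 69, 1 passed, as a fall, where 0.664% of all probe sets were lower. This set was picked after the values were seen, and its part in the petA value was not tested. petA also passed in 3 of the 9 fits with arrays left out, and not without Fru replicate 1 or 3 or Xyl replicate 1 or 3.

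ARL (AT2G44080), ARGOS-LIKE, promotes cell expansion in organ growth. It was at 4.66, 6.31 and 6.63 with Xyl and 4.17, 5.45 and 5.42 with Fru, and it changed by -0.86 ± 0.14 (SE). Both arrays of replicate 1 had little ARL and the groups overlapped, and the change was -0.49, -0.86 and -1.22. AT4G23470 changed by -0.86 ± 0.15 (SE), from 7.95, 7.97 and 7.88 to 6.89, 6.98 and 7.35, and its 3 Xyl arrays were nearly equal. AT5G01210 changed by -0.94 ± 0.23, AT4G34150 by -0.77 ± 0.17 and AT2G15960 by -0.70 ± 0.17 (SE). Of these, AT2G15960 spanned 7.38 to 10.44 among the Xyl arrays, a wider range than its change.

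Of the 20 largest changes of named genes 8 passed the threshold in each of the 9 fits with arrays left out: MGD3, MGD2, PS2, the first probe set of AT3G44510, SQD1, TPS9, ARL and AT4G23470. Leaving out a single array kept 14 (without Fru replicate 2, and without Xyl replicate 3) to 17 (without Fru replicate 1) of the 20. With 16 kept stood the fits without Fru replicate 3, Xyl replicate 1 and Xyl replicate 2. Without the 4 arrays of replicate 2 the count was 11, without those of replicate 3 it was 15, and without those of replicate 1 it was 17. Without the block 5 of the 20 passed (MGD3, AT5G20790, SQD1, TPS9 and AT4G23470), and 14 did when the block was random. Unnamed probe sets lie among them in size: 2 that rose by 1.46 and 1.23 rank above SRG3 and passed in 4 and 2 of the 9 fits, and one fell as far as petA.

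Genes that handle Fru itself did not move past the threshold. The list of hexose and pentose metabolism had 17 named members of 60, none in the study's sugar-responsive list. In limma 0 of 17 passed, where 1.09% of all probe sets did, nor was any unadjusted p under 0.05. Their changes ran from -0.17 to 0.18, with a median of -0.06. The abundant fructokinase FRK1 (AT2G31390) was at a mean of 10.15 with Xyl and 10.13 with Fru, and the 4 other named fructokinase genes changed by -0.17 to 0.12. The pyrophosphate-dependent phosphofructokinase subunits PFPA and PFPB, which work at the step after hexose phosphates, changed by -0.15, 0.11 and -0.11. The xylose isomerase gene XYLA (AT5G57655), for the first step of Xyl use, changed by 0.00 ± 0.17 (SE), with -0.54, 0.31 and 0.23 in the 3 replicates.

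Of the sugar transporters 12 of 29 were named, and SAG29 (AT5G13170), also known as SWEET15, passed. It rose by 0.54 ± 0.11 (SE), from 8.45, 6.83 and 7.57 with Xyl to 8.73, 7.48 and 8.27 with Fru. The groups overlapped widely, and without Fru replicate 2, Xyl replicate 2 or Xyl replicate 3 it did not pass. SWEET2 and SWEET11 were at 0.41 ± 0.15 and 0.34 ± 0.14 (SE), and neither passed. SWEET17 and SWEET16, the vacuolar Fru facilitators, changed by -0.14 and -0.01, and the tonoplast carriers TMT1 and TMT2 by -0.12 and 0.12. The median of the 12 was 0.08, and of all probe sets 0.431% were higher.

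TOR (AT1G50030), the kinase that couples growth to energy supply, was at 6.09, 6.68 and 6.60 with Xyl and 6.13, 6.15 and 6.26 with Fru. Its change of -0.27 ± 0.12 (SE; adjusted p = 0.409 in limma) did not pass, and replicate 1 did not fall (0.03). RAPTOR1, its partner, was at -0.24 ± 0.13 and YAK1, a kinase that acts against TOR-dependent growth, at -0.26 ± 0.10 (SE), and neither passed. The one of 7 named members of the TOR and SnRK1 list to pass was NMT1 (AT5G57020), the N-myristoyltransferase that acylates SnRK1 beta subunits, at -0.42 ± 0.11 (SE). Its call was lost in each of the 9 fits with arrays left out. Of the 7 members 3, NMT1 among them, are in the study's sugar-responsive list and have a name here only through it. Of all probe sets 0.664% were lower.

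The lists of vesicle traffic and of chromatin each held several small falls. In the endomembrane list 6 of the 12 named members fell, none rose, 6 did not pass, and the median was -0.38, beside 0.664% of all probe sets lower and a median of 0.0021. They were ALIX (-0.60), VPS15 (-0.55), ATG11 (-0.53), CASP (-0.50), GNOM (-0.44) and the AP-3 subunit PAT4 (-0.44). VPS15 (AT4G29380), the regulatory partner of the lipid kinase VPS34, was at 6.50, 6.77 and 6.73 with Xyl and 5.997, 6.09 and 6.26 with Fru. ATG11 (AT4G30790), a scaffold of autophagy, was at 5.31, 5.29 and 5.85 against 4.80, 4.83 and 5.22. Both were lower in every replicate by similar amounts, 0.47 or more, with no overlap between the groups. In the chromatin list 6 of the 12 named members fell, among them the RNA polymerase II subunit gene NRPB1 (-0.44), the co-repressor SNL1 (-0.45) and the histone demethylases PKDM7D (-0.41) and ELF6 (-0.40). None rose, 6 did not pass, and the median was -0.40, beside the same values for all probe sets. In the endomembrane list 8 and in the chromatin list 11 of the 12 are in the study's list, and 0 of the others passed. The full lists hold 28 and 36 genes, and 6 and 8 of the named members have a name here only through the study's list. These counts therefore cannot be read as shares of either group. With arrays left out 1 (without replicate 2) to 5 of the endomembrane and 0 (without replicates 1 and 2 in turn) to 4 of the chromatin genes passed, and 3 and 1 without Xyl replicate 2.

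These 2 lists hold long genes, and the change with Fru was related to gene length over the whole array. Of the 12 members, 10 of the endomembrane and 11 of the chromatin list are in the longest 10% of genes, over 4284 bp from first to last annotated base. Of the 91 lower probe sets with a gene length 28, or 30.8%, were in that class, against 3 of 75 higher ones. The median change ran from 0.05 in the shortest 10% of genes to -0.08 in the longest, where it was -0.07, -0.12 and -0.03 in replicates 1, 2 and 3. With the length trend of each array removed, 5 of the 6 endomembrane falls passed and 0 of the 6 chromatin falls. The medians became -0.29 and -0.28, and the phosphate and carbon lists kept 11 and 5 calls. Over all genes with a length that fit called 72 higher and 66 lower, where the same probe sets without the correction gave 76 and 92.

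The array carries probe sets at the 3' and 5' ends of control transcripts, whose difference grows as RNA is cut or copied short. For GAPDH it was 2.25, 2.15 and 2.17 in the Fru arrays and 2.05, 2.36 and 2.51 in the Xyl arrays, and for actin 4.38, 4.12 and 3.86 against 4.34, 4.42 and 4.33. In replicate 1 both were larger with Fru and in replicates 2 and 3 both were smaller. The part of these differences in the falls of long genes was not tested.

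**Figure D3:**
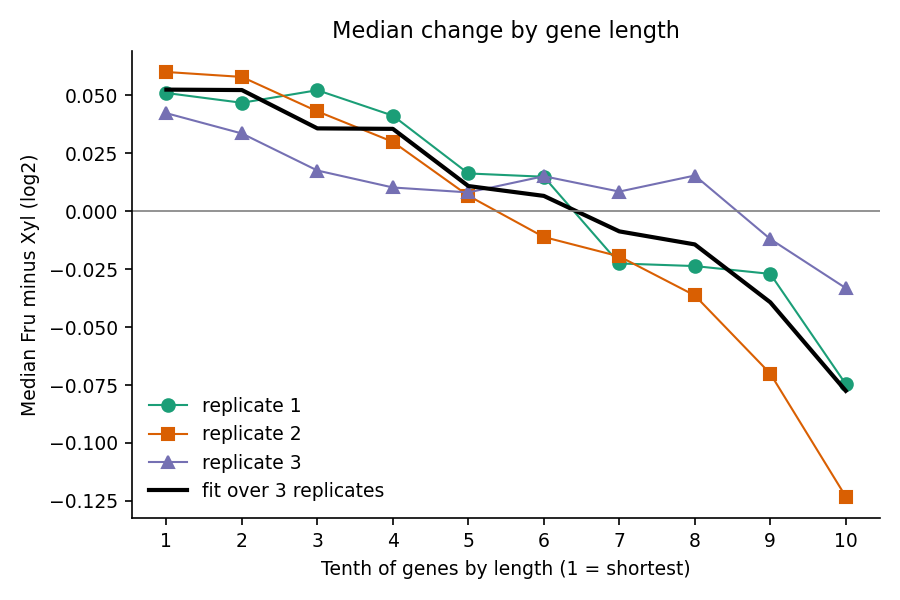
Median Fru minus Xyl change (log2, y axis) of the probe sets in each of 10 equal classes of genes by length (x axis, 1 the shortest and 10 the longest), for each replicate and for the fit over the 3. All lines start above 0 and end below it, at -0.07, -0.12 and -0.03 for the replicates.

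Smaller groups held a few calls each. In the clock list, of 4 named members COR28 (-0.66 ± 0.13 SE) and ELF3 (-0.45 ± 0.11 SE) fell and GI (-0.14) and COR27 (-0.25) did not pass. ELF3 belongs to the evening complex, and COR28 links cold and light to the clock. Among defence genes the immune regulator SRFR1 (-0.61 ± 0.11 SE) and the NLR gene ADR1-L3 (-0.45 ± 0.10 SE) fell, and the salicylic acid-related transcription factor TGA3 (0.65 ± 0.13 SE) and its partner glutaredoxin GRX480 (0.42 ± 0.10 SE) rose, with 6 members named. SRFR1 was at 6.05, 5.81 and 5.95 with Xyl and at 5.34, 5.36 and 5.29 with Fru, a tight pair of groups. Of 3 named mitochondrial carriers the ATP-Mg/phosphate carrier APC2 (AT5G51050) rose by 0.69 ± 0.11 (SE), with 0.68, 0.70 and 0.68 in the 3 replicates. The dicarboxylate carrier DIC3 rose by 0.51 ± 0.11 (SE), and DTC, for di- and tricarboxylates, stayed at a mean of 11.3 in both groups. In the study's sugar-responsive list are 2 of the 4 clock, 5 of the 6 defence and 2 of the 3 carrier genes. None of the others passed, and of all probe sets 0.431% were higher and 0.664% lower.

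Cell wall genes went both ways: the cellulose synthase-like gene CSLE1 fell by 0.68 and the cellulose synthase gene CESA10 rose by 0.52 on the log2 scale. The phenylalanine ammonia-lyase gene PAL2, at the entry of phenylpropanoid synthesis, fell by 0.50, and the anthocyanin glucosyltransferase gene UGT75C1 rose by 0.49. Single members of the nitrate and cell cycle lists, NRT1.6 (0.56) and MCM10 (0.37), rose. Each of these called genes is in the study's sugar-responsive list. None of the 5 named stress transcription factors and not COR15A, the named abscisic acid gene, passed. CESA10, UGT75C1 and DIC3 were near the lower end of the scale, with Xyl means of 3.36, 3.21 and 3.42. Of the genes of these smaller groups APC2 passed in each of the 9 fits with arrays left out, SRFR1 in 8, TGA3 in 7, PAL2 in 6, COR28 in 5, and ELF3, ADR1-L3, GRX480, DIC3, CSLE1, CESA10, UGT75C1, NRT1.6 and MCM10 in 1 to 3.

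Of 15 genes that the study's text names, 14 could be named on the array. Beside those already given, the nucleosidase URH1 (AT2G36310) fell by 0.49 and the magnesium transporter MRS2-11 by 0.39 on the log2 scale. AT2G22080 rose by 0.65 and AT3G25400 by 0.46. With arrays left out URH1 passed in 8 of the 9 fits, AT2G22080 in 5, AT3G25400 in 3 and MRS2-11 in 1. XTH30 (-0.26 ± 0.13 SE), ERF104 (-0.17 ± 0.15 SE) and AT3G57540 (0.25 ± 0.14 SE), which encodes a remorin, did not pass. TUB5, the tubulin gene used as a qPCR reference, changed by 0.08 ± 0.14 (SE), but its level was 5.84, 7.02 and 3.48 in the 3 Xyl arrays. The replicates thus differed in TUB5 far more than the sugars did.

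The part of the cell type check that could be made was small. EXPA7, a root hair gene, was at a mean of 2.87 with Xyl and 3.07 with Fru, and the Calvin cycle gene PRK at 3.04 and 2.91, all near the bottom of the scale. The Rubisco activase gene RCA was at 6.91 and 6.81. None of the 3 passed, and the markers of xylem, phloem, endodermis and dividing cells were not analysed here. In such bulk samples a lower share of a kind of cell and less RNA per cell cannot be told apart.

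Fru was next set directly against Glc, an isomeric aldohexose, and Suc, the disaccharide of both, at the same dose and time. Fru against Glc called 100 probe sets (0.44%), of which 38 were higher (0.167%) and 62 lower (0.273%) with Fru. Fru against Suc called 133 (0.585%), of which 52 were higher (0.229%) and 81 lower (0.356%). The number expected with no differences was 45.5 in each, no adjusted p was under 0.05 in limma (2040 and 2578 had an unadjusted p under 0.05), and without the block the counts were 5 and 1. Both pairs share the Fru arrays with the comparison against Xyl, so a gene with an extreme Fru value can appear in each.

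Of the phosphate starvation list MGD3 and MGD2 differed between Fru and Suc past the threshold, and no member did between Fru and Glc. MGD3 had changed by 2.37 with Fru, 1.72 with Glc and 0.76 with Suc against the same Xyl arrays. It was 1.62 ± 0.37 (SE; adjusted p = 0.268 in limma) higher with Fru than with Suc, past the threshold, and 0.66 ± 0.37 higher than with Glc, which did not pass (adjusted p = 0.603). MGD2 was 1.21 ± 0.30 (SE; adjusted p = 0.317 in limma) higher with Fru than with Suc, again past it, and 0.39 ± 0.30 higher than with Glc (adjusted p = 0.70). The Glc arrays were uneven: MGD3 was at 6.52, 5.40 and 7.14 with Glc, so that Fru was higher in replicates 1 and 2 and lower in replicate 3. PS2, AT5G20790, SRG3, SQD1 and MGD2 had the same order, with Glc above Fru in replicate 3. PHT1;4, in contrast, was higher with Fru in each replicate, by 0.60 ± 0.17 over Glc and 0.64 ± 0.17 (SE) over Suc, both short of the threshold.

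**Figure D4:**
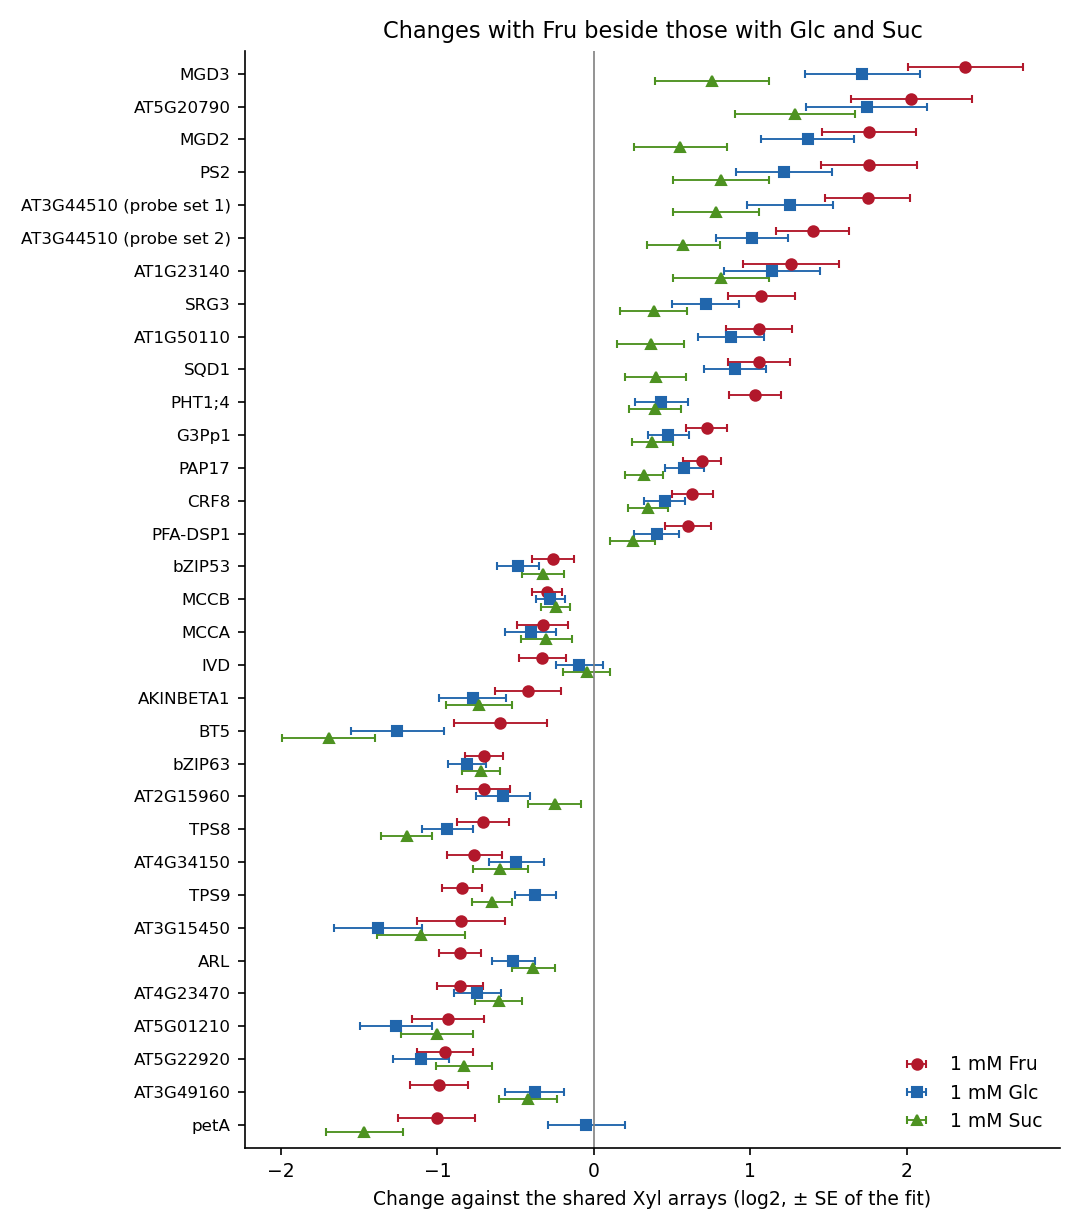
Change against the shared Xyl arrays (log2, x axis, with the SE of the fit) with 1 mM Fru, Glc and Suc for the 20 largest changes of named genes with Fru and the genes of the phosphate and carbon starvation lists. For MGD3 the values are 2.37, 1.72 and 0.76 with Fru, Glc and Suc, and for petA they are -1.004, -0.05 and -1.47.

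Among the falls, petA differed between the hexoses. It was 0.96 ± 0.25 (SE; adjusted p = 0.436 in limma) lower with Fru than with Glc, and its Suc value of -1.47 lay below that of Fru. The organelle gene ccb382, for cytochrome c biogenesis, was also lower with Fru than with Glc, by 0.93 ± 0.19 (SE). TPS9 and AT3G49160 were lower with Fru than with Glc by 0.47 ± 0.13 and 0.61 ± 0.19 (SE), short of the threshold. bZIP63 and AT5G22920 had values close together with the 3 sugars, at -0.70, -0.81 and -0.72 and at -0.95, -1.11 and -0.83 with Fru, Glc and Suc. Their differences between Fru and the other sugars were 0.15 or less in size, with SE of 0.12 and 0.18.

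Some genes were lower than in the Xyl arrays with Glc and Suc but less so, or not, with Fru. The ERF-family transcription factor gene AT5G61590 had values of 0.69, -0.11 and -0.58 in the 3 replicates with Fru, and -0.97 with Glc and -1.22 with Suc over the 3. It was 1.22 ± 0.31 (SE; adjusted p = 0.317 in limma) higher with Fru than with Suc, past the threshold, and 0.97 ± 0.31 higher than with Glc, short of it. Its 3 Fru arrays read 6.47, 6.54 and 5.94 and its Suc arrays 4.99, 5.72 and 4.58, without overlap. ERF104 had values of -0.17, -0.66 and -0.73 with Fru, Glc and Suc, TOR of -0.27, -0.67 and -0.53, and BT5 of -0.60, -1.26 and -1.70. The differences of these 3 genes between Fru and the other sugars, 0.25 or more in size, did not pass. AT2G24550 and AT3G07350 were also higher with Fru than with Suc, by 0.85 ± 0.19 and 0.81 ± 0.18 (SE).

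The reverse pattern, lower with Fru than with the other sugars, was clearest for AT2G28590. It was at 5.03, 4.95 and 5.58 with Fru and at 5.70, 5.57 and 6.40 with Glc and 6.10, 5.89 and 6.13 with Suc, a difference of -0.70 ± 0.13 from Glc and -0.85 ± 0.13 (SE) from Suc. The dehydrin gene LTI30, the transcriptional coactivator KELP, AT3G22210 and AT1G19530 were lower than with Suc by 0.86, 0.88, 0.83 and 0.81. AT1G64380, of the ERF family, and AT2G39400 were lower than with Glc by 0.76 and 0.72. Higher with Fru than with Glc were AT1G64560 (0.64), the RING-domain gene AT5G42200 (0.61), AT1G70180 (0.57), AT1G26100 (0.53) and UGT75C1 (0.49). The remorin gene AT3G57540 was 0.64 ± 0.14 (SE; adjusted p = 0.404 in limma) lower with Fru than with Glc, at 5.48, 4.50 and 5.66 against 5.97, 5.65 and 5.93. In the study's qPCR, by contrast, it responded to Fru and not to Glc.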

How the data were processed

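Total RNA of each sample was hybridised to 1 Affymetrix ATH1 array by the authors, who deposited log2 RMA values (background-corrected, quantile-normalized and summarised per probe set). The submitters' processing notes name Expression Console, RMA and limma, with versions not given in the sources used here. A second deposited table repeats these values beside the authors' own comparisons (log2 fold changes, p-values, adjusted p-values and log odds) and was not used.

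The 64 control probe sets were left out of 22810. The rest were fitted in limma 3.58.1 (R 4.3.3) over the 12 arrays with sugar and replicate number as terms (6 residual degrees of freedom). Calls used the methods' threshold of p under 0.002 and a Benjamini-Hochberg adjusted p under 0.05. The comparison was defined as paired, hence the block, although the methods name a t-test. Deviations from the group means correlated at 0.781 to 0.892 in the 3 pairs of Fru and Xyl arrays that share a number, against -0.734 to 0.145 in the others. The number of arrays limits the precision.

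Names came from the platform annotation and a reference table of TAIR10.1 (13513 probe sets with 1 gene, 503 with several), and 128 more from the study's list of 290 genes, each matched by its 3 ratios within 1e-05. Of the tested probe sets 9105 stayed unnamed. Gene lengths and plastid origin are of TAIR10.1, and no coordinates are printed. Promoter and protein sequences were not analysed here.

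Named in the text were the 10 largest rises and falls of probe sets with a single gene name past p 0.002 with the same direction in 3 replicates, the members of the phosphate and carbon starvation lists, up to 4 of each other list by size of the test statistic, the genes the study's text names, and the 5 largest differences each way from Glc and Suc; further list members were named after their values were seen. Members and lists were chosen with earlier results of these data known. Alternatives were no or a random block, the 6 arrays alone, an unpaired t-test, a trended robust variance and array weights. Further ones were a mean log2 level of 5 or more, median centring, the length trend removed, probe sets specific to 1 gene, and arrays left out. The fit was tested on simulated data.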

Additional observations from a re-analysis of the deposited data

Results flagged for a closer look

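Some genes named above changed differently with Fru than with Glc or Suc, by the test of that difference at p under 0.002 in limma; none had an adjusted p under 0.05 (lowest 0.221). Higher with Fru than with Suc were MGD3 (1.62), AT5G61590 (1.22), MGD2 (1.21), AT2G24550 (0.85), AT3G07350 (0.81) and AT1G64560 (0.75 on the log2 scale). Lower with Fru than with Suc were KELP (-0.88), LTI30 (-0.86), AT2G28590 (-0.85), AT3G22210 (-0.83), AT1G19530 (-0.81) and AT2G39400 (-0.62).

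Higher with Fru than with Glc were AT1G64560 (0.64), AT5G42200 (0.61), AT1G70180 (0.57), AT1G26100 (0.53), UGT75C1 (0.49), WRKY22 (0.47) and GRX480 (0.39). Lower with Fru than with Glc were petA (-0.96), ccb382 (-0.93), AT1G64380 (-0.76), AT2G39400 (-0.72), AT2G28590 (-0.70) and AT3G57540 (-0.64). AT1G64560, AT2G28590 and AT2G39400 are on both sides. Many of these genes were picked for the size of these differences.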

How the results depend on the processing

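The count of 249 probe sets for Fru against Xyl became 403 with array weights and 138 with the gene length trend removed (13564 probe sets tested). It was 125 with a random block, 26 with the unpaired t-test (0 after Benjamini-Hochberg) and 19 with no replicate block. The other settings gave 168 to 256. An adjusted p under 0.05, which 0 had, was reached by 110 with array weights, 19 in the 6 arrays alone, 13 with a trended robust variance and 13 with the length trend removed. Leaving out arrays gave 71 to 308 calls (lowest without replicate 2, highest without Fru replicate 1) and 0 to 43 with an adjusted p under 0.05 (highest without replicate 3).

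In place of 100, Fru against Glc gave 64 with a random block and 45 among probe sets of mean level 5 or more. It gave 16 with the unpaired t-test and 5 without the block. Leaving out arrays gave 52 to 157, and 0 to 7 by adjusted p. In place of 133, Fru against Suc gave 404 with array weights (66 by adjusted p) and 85 with the length trend removed. It gave 78 among probe sets of mean level 5 or more, 56 with a random block, 16 with the unpaired t-test and 1 without the block. Leaving out arrays gave 39 to 259, and 0 to 7 by adjusted p. The causes were not tested.

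Among list medians, removing the length trend moved those of TOR and SnRK1 kinases to -0.14, endomembrane genes to -0.29 and chromatin genes to -0.28. A mean level of 5 or more left endomembrane genes at -0.32 and the phenylpropanoid list at -0.50, where PAL2 alone remained. Median centring moved endomembrane genes to -0.32 and defence genes to 0.086. With arrays left out the medians ran from 0.83 to 1.28 for phosphate starvation, -0.86 to -0.39 for carbon starvation, -0.09 to 0.0004 for hexose and pentose metabolism, 0.02 to 0.13 for sugar transporters, -0.52 to -0.27 for the clock, -0.34 to -0.15 for TOR and SnRK1 kinases, -0.41 to -0.35 for endomembrane genes, -0.44 to -0.31 for chromatin, -0.44 to -0.24 for the cell wall, -0.27 to -0.05 for stress factors, 0.04 to 0.24 for phenylpropanoids, -0.024 to 0.10 for defence, 0.42 to 0.66 for mitochondrial carriers and -0.36 to -0.15 for genes the study names. Of the 56 named probe sets past the threshold for Fru against Xyl, 0 were reversed in direction under these alternatives. That was largely fixed in advance. Other blocks, tests or variances leave the log2 change as it is, and called probe sets had 1 direction in all 3 replicates. Dim transcripts limit what these arrays can show, since 41.1% of probe sets had a mean log2 level under 4 and no detection calls were used.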
